A study of Homo sapiens with 12 samples.

Results

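The 47 genes described here encode proteins that drive, build or police the mitotic spindle and the kinetochore. They were listed by name, with no threshold on a measured value, though earlier results of these data were known when the list was made, and they fall into 9 roles: cyclins and CDK1 (4 genes), the kinases PLK1 and AURKA (2), the spindle checkpoint (5), partners of the anaphase-promoting complex with separase (4), the chromosomal passenger complex (4), centromere and kinetochore proteins (10), kinesin motors (9), spindle microtubule-binding proteins (7) and cytokinesis proteins (2). All 47 were among the 60649 genes of the files, and all 47 were among the 16683 genes that passed the filter on low counts. RNA was sequenced from SBC3, an established human small cell lung cancer line grown as spheroids, in 4 groups of 3 libraries: no drug (control), lurbinectedin, teriflunomide, and the 2 drugs together (combination). Lurbinectedin binds DNA and stalls RNA polymerase II, and teriflunomide blocks DHODH, a mitochondrial enzyme of pyrimidine synthesis. The study asks about teriflunomide given with chemotherapy and about DRP1, a protein of mitochondrial fission. The labels give neither dose nor time, every group is the same cell line, and nothing states that the 3 libraries of a group came from separate cultures, so p-values measure the spread between these libraries, which may be technical.

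In dividing cells, cyclin B bound to CDK1 starts mitosis, and PLK1 and the Aurora kinases prepare the spindle poles, the kinetochores and the midzone. Kinetochore proteins tie chromosomes to microtubules, kinesins and other microtubule-binding proteins shape the spindle, and the spindle checkpoint holds back CDC20 and the anaphase-promoting complex until every chromosome is attached. Transcripts of most of these genes rise late in the cell cycle, through promoters that often carry a cell cycle homology region (CHR) and CCAAT boxes, and fast-dividing tumours such as small cell lung cancer express them strongly. RNA from whole spheroids cannot tell fewer cells in mitosis from less RNA per mitotic cell.

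Promoter sequences are shown for the 3 largest rises and the 3 largest falls with lurbinectedin that had a window in the RefSeq table (GRCh38.p14), and for CCNB1 and PLK1, so that promoters of genes that moved apart can be set side by side. Each window runs from 250 bases before to 50 bases after the annotated start, 5′ to 3′ on the plus strand. Capitals mark the CHR letters TTTGAA and the CCAAT box, searched on both strands, so that the reverse complement of either is in capitals too. Only these exact letters were searched, so a window without TTTGAA was not shown to lack a CHR of another spelling. The 3 that rose are NUSAP1 (chr15:41332631-41332930), KIF20A (chr5:138178862-138179161) and PTTG1 (chr5:160421605-160421904).
NUSAP1: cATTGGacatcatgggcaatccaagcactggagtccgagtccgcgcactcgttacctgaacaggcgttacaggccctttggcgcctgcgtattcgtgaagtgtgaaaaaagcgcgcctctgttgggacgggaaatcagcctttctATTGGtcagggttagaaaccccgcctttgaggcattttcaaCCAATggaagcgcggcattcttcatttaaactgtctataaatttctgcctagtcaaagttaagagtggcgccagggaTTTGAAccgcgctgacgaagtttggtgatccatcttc
KIF20A: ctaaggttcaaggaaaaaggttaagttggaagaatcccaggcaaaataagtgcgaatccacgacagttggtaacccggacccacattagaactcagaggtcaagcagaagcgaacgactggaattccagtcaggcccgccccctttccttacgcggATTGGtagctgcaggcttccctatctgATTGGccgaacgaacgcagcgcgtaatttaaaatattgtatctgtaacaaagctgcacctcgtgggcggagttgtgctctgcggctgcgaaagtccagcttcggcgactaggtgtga
PTTG1: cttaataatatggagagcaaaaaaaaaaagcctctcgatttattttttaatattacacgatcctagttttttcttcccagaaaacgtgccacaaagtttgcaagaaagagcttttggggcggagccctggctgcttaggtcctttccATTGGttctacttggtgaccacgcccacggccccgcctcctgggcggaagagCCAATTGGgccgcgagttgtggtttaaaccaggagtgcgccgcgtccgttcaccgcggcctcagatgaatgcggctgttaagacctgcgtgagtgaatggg

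The 3 that fell are KIF4A (chrX:70289854-70290153), HMMR (chr5:163460382-163460681) and KIF15 (chr3:44761544-44761843).
KIF4A: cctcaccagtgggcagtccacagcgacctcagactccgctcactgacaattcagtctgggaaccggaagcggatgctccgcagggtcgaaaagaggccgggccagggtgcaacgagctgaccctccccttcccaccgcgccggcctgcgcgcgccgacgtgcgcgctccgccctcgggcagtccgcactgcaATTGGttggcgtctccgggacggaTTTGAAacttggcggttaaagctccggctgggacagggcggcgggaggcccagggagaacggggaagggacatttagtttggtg
HMMR: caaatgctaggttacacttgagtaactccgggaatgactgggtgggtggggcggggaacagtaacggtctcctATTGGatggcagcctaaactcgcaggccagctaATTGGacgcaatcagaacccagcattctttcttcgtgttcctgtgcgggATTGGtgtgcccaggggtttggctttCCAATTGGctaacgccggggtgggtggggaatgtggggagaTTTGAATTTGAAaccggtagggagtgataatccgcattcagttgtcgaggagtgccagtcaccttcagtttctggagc
KIF15: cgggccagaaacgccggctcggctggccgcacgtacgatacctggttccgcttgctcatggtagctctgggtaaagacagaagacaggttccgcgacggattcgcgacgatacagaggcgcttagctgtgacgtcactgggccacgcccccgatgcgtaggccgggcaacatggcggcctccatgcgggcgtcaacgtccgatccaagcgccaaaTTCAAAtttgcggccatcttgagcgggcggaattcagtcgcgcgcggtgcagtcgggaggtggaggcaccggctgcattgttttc

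The cyclin B1 and Polo-like kinase 1 windows are at chr5:69166900-69167199 and chr16:23678639-23678938, and neither gene was called with lurbinectedin.
CCNB1: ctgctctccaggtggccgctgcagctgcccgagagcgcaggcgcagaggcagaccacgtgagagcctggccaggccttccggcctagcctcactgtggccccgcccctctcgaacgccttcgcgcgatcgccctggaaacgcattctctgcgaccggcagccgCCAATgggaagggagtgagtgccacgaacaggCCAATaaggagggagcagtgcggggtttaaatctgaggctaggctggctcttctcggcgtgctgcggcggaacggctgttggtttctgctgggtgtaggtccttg
PLK1: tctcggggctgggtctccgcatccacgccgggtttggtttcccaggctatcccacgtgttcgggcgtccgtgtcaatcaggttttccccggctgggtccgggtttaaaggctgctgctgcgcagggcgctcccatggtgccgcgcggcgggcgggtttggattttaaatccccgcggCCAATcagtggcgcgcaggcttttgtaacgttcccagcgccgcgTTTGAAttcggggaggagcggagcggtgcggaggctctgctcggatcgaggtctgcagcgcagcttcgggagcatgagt

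Adjacent capitals in HMMR are 2 abutting copies of TTTGAA, and longer runs in HMMR and PTTG1 are CCAAT boxes on opposite strands that overlap. A window was found for 40 of the 47 genes, and those without a window are AURKA, BUB3, TTK, UBE2C, BIRC5, CENPH and TPX2. TTTGAA on either strand was in 29 of 40 windows (72.5%), against 9.86% of the windows of 11362 tested genes. CCAAT on either strand was in 32 of 40 (80%), against 37.1%, and both motifs were in 24 (60%), against 4.27%. Of the 29 genes with TTTGAA, 7 rose and 16 fell with lurbinectedin, with a median log2 fold change of -0.63 and a median genomic span of 45.1 kb. Of all 1120 tested genes with it, 30.4% rose and 45.7% fell, with a median of -0.26 and a median span of 35.7 kb. Of the 11 without it, 5 rose and 3 fell, with a median of 0.28 and a median span of 21.2 kb, against 34.9% and 38.8% of 10240 tested genes without it (median -0.04, span 30.9 kb). Among genes with a window, NUSAP1 had the largest rise and KIF4A the largest fall, and both carry TTTGAA and CCAAT. The counts of NUSAP1 are low, and 81.4% of its exon bases are shared with another gene on its strand. Its window also lies well inside the gene as counted (chr15:41320794-41381050), so its RefSeq start is not the start used for its span. A match is a description of letters and not a binding site.

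Total counts ranged from 23206414 to 33222162 per library. Mitochondrially encoded genes took 6.26% to 7.17% of the counts in control, 13.8% to 17.0% with lurbinectedin, 13.1% to 24.9% with the combination, and 8.42%, 8.43% and 22.6% with teriflunomide. Teriflunomide replicate 3, the library at 22.6%, stood apart in the mitotic genes too: it was the highest of its group in 29 of the 47 genes and the lowest in the other 18. Combination replicate 2, the library at 24.9%, was the highest of its group in 28 and the lowest in 8. The same counts over all genes were not made. Of the markers of the line, the neuroendocrine genes SYP, NEUROD1 and DLL3 stood at 12.5 to 36.4, 1.34 to 5.75 and 0.722 to 2.85 CPM, and CHGA, INSM1 and NCAM1 had 85, 0 and 6 counts in all 12 libraries together. YAP1, a marker of the non-neuroendocrine form, stood at 53.5 to 326 CPM. Fibroblast collagens were present (COL1A1 77.6 to 297 CPM) with DCN at 1 count and LUM at 0 counts, and the leukocyte markers PTPRC, CD3E, CD14 and CD79A had 10, 0, 299 and 218 counts.

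Levels are TMM-scaled CPM (each library's counts over its scaled total), given as mean ± SD over 3 libraries. Summed over the 47 genes, they came to 5178 ± 74.2 CPM in control, 4692 ± 106 CPM with lurbinectedin, 4701 ± 330 CPM with the combination, and 4926, 4829 and 6515 CPM in the 3 teriflunomide libraries. As a mean share of all counts, without TMM scaling, they took 0.564% in control, 0.434% with lurbinectedin and 0.453% with the combination. In the 3 teriflunomide libraries that share was 0.537%, 0.540% and 0.576%. Per kb of exon in control, CDC20 (91.9 CPM per kb), TPX2 (88.5) and CCNB1 (86.9) were the most abundant, and CENPK (3.96), PRC1 (0.379) and NUSAP1 (0.139) the least. PRC1, which bundles midzone microtubules, and NUSAP1, a spindle-binding protein, are listed far below the other 45 genes, none of which had under 193 counts in any library. Of their exon bases, 57.6% in PRC1 and 81.4% in NUSAP1 are also exon of another annotated gene on the same strand, so reads may have been split or set aside there and their values are uncertain. Another 13 genes share under 25% of their exon bases with a neighbour, and 32 share none.

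**Figure D1:**
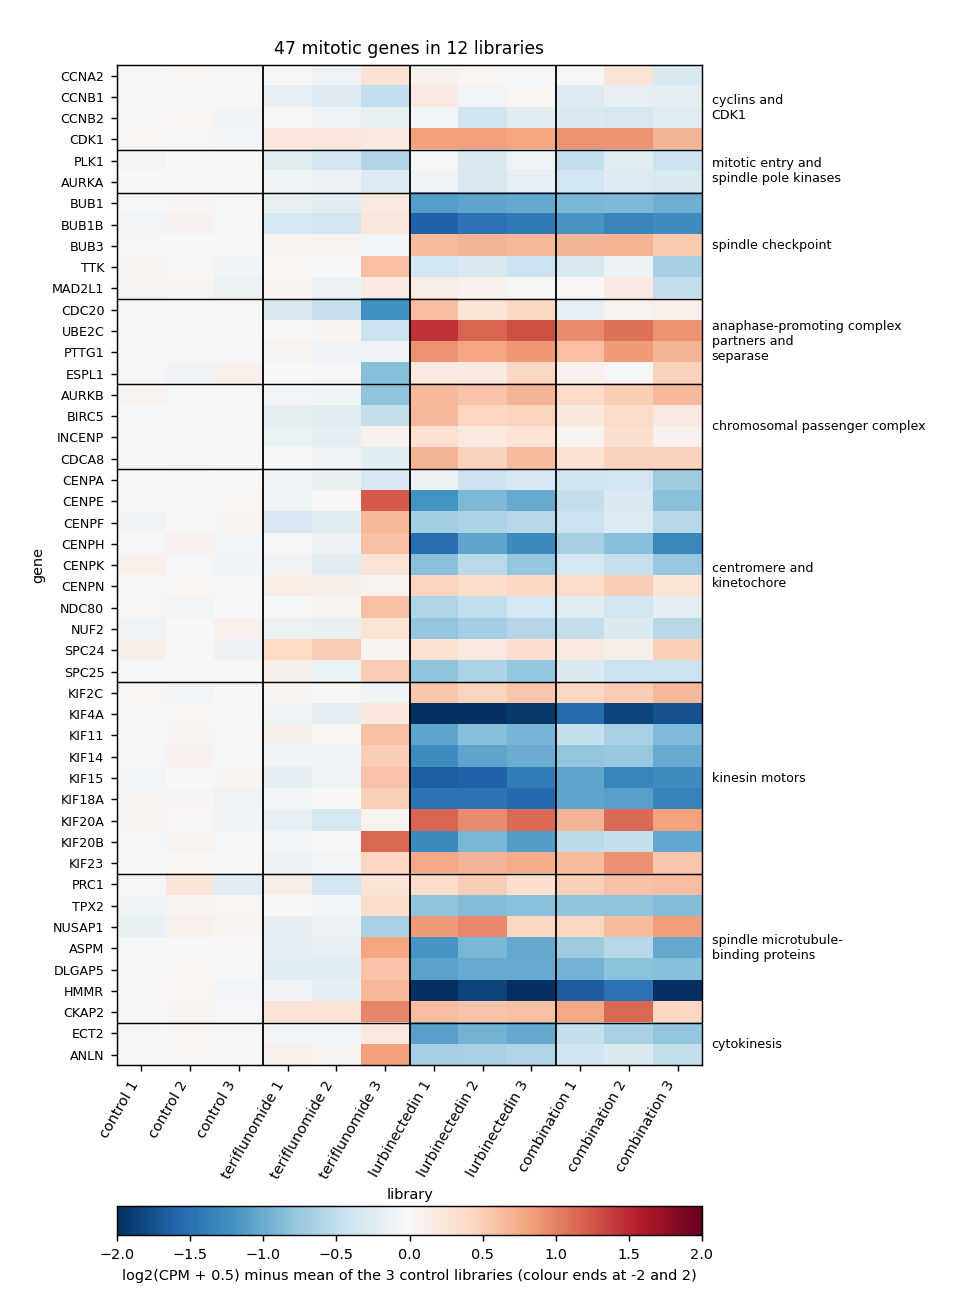
Each row is a mitotic gene, grouped by role, and each column a library. Colour gives log2(CPM + 0.5) minus the mean of the 3 control libraries. The lurbinectedin and combination libraries hold both rising (red) and falling (blue) genes within most roles, and teriflunomide replicate 3 differs from replicates 1 and 2, for example at CENPE (190.2 CPM against 75.4 and 81.0 CPM).

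The comparison of lurbinectedin with control asks how these genes respond to that drug alone. Calls rest on edgeR's quasi-likelihood test, with p-values adjusted by Benjamini and Hochberg's method over all 16683 genes and a threshold of 0.05. Of the 47 genes, 36 were called, 15 higher and 21 lower, where 71.6% of all tested genes were called (36.0% higher, 35.7% lower), so the number called is close to the background. The median log2 fold change was -0.22 over the 47 genes and 0.05 over all genes. With library size as the only scaling, which moved the median of all genes to -0.18 and that of the 47 genes to -0.46, 9 were called higher and 26 lower (25.9% and 40.2% of all genes). Against a change of 1.5-fold (TREAT test), 20 of the 47 were called, and 48.1% of all genes. Direction differed between roles. All 4 genes of the chromosomal passenger complex rose, 3 of 4 partners of the anaphase-promoting complex rose, and 7 of 10 kinetochore genes, 6 of 9 kinesins and both cytokinesis genes fell. These roles also differ in genomic span, described below. The passenger genes span 5.87 to 29.2 kb, the anaphase-promoting complex partners 4.22 to 25.3 kb, and the cytokinesis genes 64.0 and 70.8 kb. Of all nuclear genes, 53.6% under 20 kb and 41.1% from 20 to 40 kb rose, and 68.8% of 40 kb or more fell. Role apart from span was not tested.

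CDK1, the kinase that drives entry into mitosis (chr10:60778331-60794852, GRCh38), stood at 151, 148 and 141 CPM in control and at 258, 260.1 and 253 CPM with lurbinectedin. Every lurbinectedin library was above every control library, and CDK1 rose by 0.81 on the log2 scale (SE 0.0872, edgeR adjusted p = 1.36e-06). It was the only called gene among its cyclin partners, with CCNB1, CCNB2 and CCNA2 at log2 fold changes of 0.06 (SE 0.0997), -0.22 (SE 0.105) and 0.03 (SE 0.137). CCNB1, the B-type cyclin that activates CDK1 (chr5:69167135-69178245), was at 213, 209.5 and 212 CPM in control and 239, 204 and 218 CPM with lurbinectedin, groups that overlap. PLK1, a kinase of spindle poles and kinetochores (chr16:23677656-23690367), was at 100.4, 105 and 107 CPM in control and 101, 85.4 and 96.6 CPM with lurbinectedin, also overlapping (log2 fold change -0.14, SE 0.114, edgeR adjusted p = 0.285). AURKA, the spindle pole kinase (chr20:56369389-56392337), was at 77.9, 78.2 and 75.4 CPM in control and 73.3, 62.4 and 68.8 CPM with lurbinectedin. Those groups did not overlap, but AURKA was not called (log2 fold change -0.18, SE 0.0973, edgeR adjusted p = 0.114).

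UBE2C, the ubiquitin-conjugating enzyme of the anaphase-promoting complex (chr20:45812576-45816957), had the largest rise. It stood at 74.1, 73.2 and 73.8 CPM in control and at 201, 165 and 179 CPM with lurbinectedin, without overlap (log2 fold change 1.30, SE 0.129, edgeR adjusted p = 6.51e-07). PTTG1, securin, the inhibitor of separase (chr5:160421855-160428739), stood at 61.7, 62.2 and 60.9 CPM in control and at 116, 106 and 113 CPM with lurbinectedin. All lurbinectedin values lay above control, and PTTG1 rose by 0.86 (SE 0.0976, edgeR adjusted p = 2.41e-06) on the log2 scale. CDC20, the activator that the checkpoint restrains (chr1:43358981-43363203), stood at 184, 185 and 186 CPM in control and at 283, 224 and 245 CPM with lurbinectedin. It rose by 0.44 (SE 0.179, edgeR adjusted p = 0.0402), with no overlap. CDC20 was not called without any single control library, without lurbinectedin replicate 1 or 3, without combination replicate 1 or 2, or by DESeq2. ESPL1, separase itself, had a log2 fold change of 0.26 (SE 0.192) and was not called.

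Within the chromosomal passenger complex, AURKB is the kinase and BIRC5 (survivin), CDCA8 (borealin) and INCENP place and activate it. AURKB (chr17:8204733-8210600) stood at 54.4, 51.2 and 50.3 CPM in control and at 81.5, 77.8 and 83.5 CPM with lurbinectedin. The lowest treated library was well above the highest control library (log2 fold change 0.64, SE 0.160, edgeR adjusted p = 0.00258). BIRC5 (chr17:78214186-78225636) stood at 134, 135 and 129.9 CPM in control and at 210.2, 179 and 181 CPM with lurbinectedin, also without overlap (log2 fold change 0.52, SE 0.106, edgeR adjusted p = 0.000551). CDCA8 and INCENP rose by 0.59 and 0.25 on the log2 scale, INCENP with an adjusted p of 0.0379 in edgeR. INCENP was not called without any single control or lurbinectedin library, and with library size as the only scaling CDCA8 alone of the 4 was called.

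The spindle checkpoint genes split. BUB1B, which encodes BubR1 (chr15:40161023-40221123), stood at 87.2, 95.3 and 88.3 CPM in control and at 29.2, 32.1 and 33.6 CPM with lurbinectedin. It was lower in every lurbinectedin library and fell by 1.51 on the log2 scale (SE 0.148, edgeR adjusted p = 5.65e-07). BUB1, the kinase that recruits other checkpoint proteins, averaged 179 ± 5.54 CPM in control and 85.9 ± 2.26 CPM with lurbinectedin (n = 3 each) and fell by 1.06. BUB3, which binds both of them, averaged 148 ± 3.46 and 234 ± 4.28 CPM and rose by 0.66. TTK, the kinase that starts checkpoint signalling, and MAD2L1, the MAD2 protein that binds CDC20, were not called, at log2 fold changes of -0.37 (SE 0.165) and 0.07 (SE 0.147).

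Among the 10 centromere and kinetochore genes, 7 were lower, 1 was higher and 2 were not called. CENPH, of the inner kinetochore, averaged 38.5 ± 2.18 CPM in control and 15.7 ± 2.54 CPM with lurbinectedin and fell by 1.29 on the log2 scale (SE 0.204). CENPE, the kinesin that carries chromosomes to the spindle equator, fell by 1.04 (SE 0.277), and CENPF, a large outer kinetochore protein, fell by 0.63 (SE 0.201). The 4 subunits of the microtubule-binding NDC80 complex did not move as a unit: SPC25, NUF2 and NDC80 fell by 0.76, 0.69 and 0.49, and SPC24 was not called at 0.28 (SE 0.139). CENPN, a reader of centromeric nucleosomes, rose by 0.41 (SE 0.0925), with 12.6% of its exon bases shared with another gene on its strand. CENPA, the centromeric histone, was not called at -0.29 (SE 0.132).

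All 9 kinesins were called. KIF4A, a chromosome- and midzone-bound motor on the X chromosome (chrX:70290104-70420886), stood at 74.8, 78.8 and 76.4 CPM in control and at 15.4, 18.5 and 19.7 CPM with lurbinectedin. No other member fell as far (log2 fold change -2.10, SE 0.137, edgeR adjusted p = 9.66e-09). Its control and treated libraries are far apart. KIF15, a motor that helps keep the spindle bipolar (chr3:44761721-44873376), stood at 75.8, 78.4 and 82.0 CPM in control and at 24.9, 25.4 and 29.5 CPM with lurbinectedin. KIF15 fell by 1.57 on the log2 scale (SE 0.175, edgeR adjusted p = 2.15e-06), with no overlap. KIF18A, which limits chromosome swings (chr11:28020619-28108156), stood at 41.0, 41.0 and 36.6 CPM in control and at 13.9, 13.9 and 13.2 CPM with lurbinectedin. KIF18A fell by 1.53 (SE 0.150, edgeR adjusted p = 5.45e-07), again with no overlap. KIF14 and KIF20B, which act late in division, fell by 1.1 each, and KIF11 (Eg5), which pushes the poles apart, fell by 0.94.

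The 3 kinesins that rose include both motors of the central spindle best known for cytokinesis. KIF20A (MKLP2, chr5:138178719-138187723), which takes the passenger complex to the midzone, stood at 53.2, 52.1 and 49.1 CPM in control and at 116, 99.5 and 114 CPM with lurbinectedin. All treated libraries were higher than all control libraries (log2 fold change 1.09, SE 0.137, edgeR adjusted p = 6.68e-06). KIF23 (MKLP1) averaged 85.8 ± 2.32 CPM in control and 143 ± 4.92 CPM with lurbinectedin and rose by 0.74 on the log2 scale. KIF2C, a motor that disassembles microtubule ends, rose by 0.52, a call lost, like that of CENPN, with library size as the only scaling. ECT2 and ANLN, which shape the contractile ring, fell by 1.02 (SE 0.108) and 0.64 (SE 0.159).

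Of the spindle microtubule-binding genes, HMMR, a spindle-assembly factor also known as RHAMM (chr5:163460203-163491941), stood at 106, 108 and 101 CPM in control and at 25.5, 28.5 and 25.9 CPM with lurbinectedin. The groups are far apart and HMMR fell by 1.98 on the log2 scale (SE 0.205, edgeR adjusted p = 1.03e-06). ASPM, DLGAP5 and TPX2, which focus poles or nucleate microtubules, fell by 1.04, 1.03 and 0.84. CKAP2, a microtubule stabiliser, averaged 133 ± 4.30 CPM in control and 201 ± 3.20 CPM with lurbinectedin and rose by 0.60 (SE 0.192). NUSAP1 (chr15:41320794-41381050) stood at 0.402, 0.568 and 0.538 CPM in control and at 1.31, 1.45 and 0.836 CPM with lurbinectedin, without overlap (log2 fold change 1.23, SE 0.337, edgeR adjusted p = 0.00473), on the low and uncertain counts described above. PRC1 was not called, at 2.09 ± 0.411 CPM in control and 2.90 ± 0.198 CPM with lurbinectedin.

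**Figure D2:**
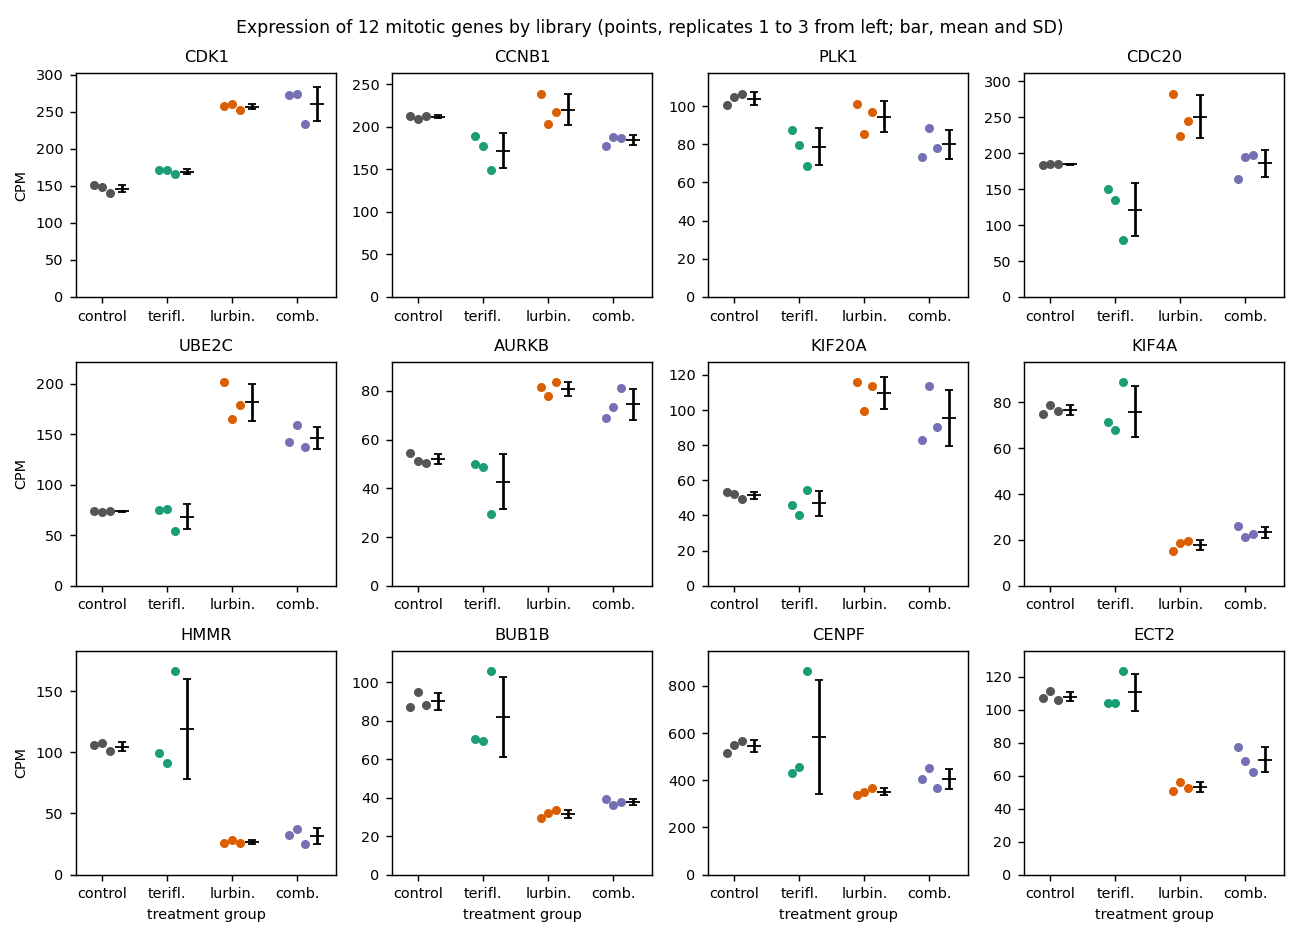
CPM of 12 mitotic genes in each library (points, replicates 1 to 3 from the left) with the group mean and SD (bars). The groups are control, teriflunomide, lurbinectedin and combination. UBE2C, AURKB and KIF20A lie higher, and KIF4A, HMMR, BUB1B and ECT2 lower, in all 6 libraries with lurbinectedin than in the 3 control libraries.

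Genomic span, the distance from the first to the last annotated exon base, ran from 4.22 kb (CDC20) to 131 kb (KIF4A) over the 47 genes, with a median of 31.7 kb against 24.7 kb over 16651 nuclear genes tested. The change with lurbinectedin ran with span: the Spearman correlation across the 47 genes was -0.72, and -0.57 across all 16651 nuclear genes. The points share the same libraries, and genes are not independent replicates, so no p is given. The classes below were set after the values were seen. Of 14 genes under 20 kb, 9 rose and none fell, with a median log2 fold change of 0.56, while 53.6% of all genes in that class rose, 12.8% fell and the median was 0.62. Of 13 genes from 20 to 40 kb, 5 rose and 2 fell (median 0.26), against 41.1% and 24.3% of all genes (median 0.19). Of 20 genes of 40 kb or more, 1 rose and 19 fell (median -1.03), against 12.1% and 68.8% of all genes (median -1.04). The upper class is wide: it reaches 2305 kb over all genes, and the longest mitotic gene spans 131 kb. In the bin of all genes from 35.9 to 82.9 kb, 1 of 17 mitotic genes rose and 14 fell (median -0.84), against 21.2% and 49.1% of all genes (median -0.36). In the bin above it, all 5 fell (median -1.53), against 83.7% of all genes (median -1.86).

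Some genes left this order. Of the genes under 20 kb, CCNA2, CCNB1, CCNB2, PLK1 and MAD2L1 were not called. The lowest of them, CCNB2, was at -0.22, where all genes of that class had a median of 0.62. NUSAP1, whose RefSeq start lies well inside its span, is the 1 gene of 40 kb or more that rose, on uncertain counts. HMMR at 31.7 kb and CENPH at 20.8 kb are the 2 genes under 40 kb that fell, by 1.98 and 1.29, where all genes of 20 to 40 kb had a median of 0.19. KIF23 at 34.2 kb rose by 0.74. Within a role, the split often ran with span: BUB3 spans 16.1 kb, BUB1 40.5 kb and BUB1B 60.1 kb, and KIF20A spans 9.0 kb, KIF15 112 kb and KIF4A 131 kb. With exonic length in place of span, the Spearman correlation was -0.28 across the 47 genes and -0.36 across all 16651 nuclear genes. Mitochondrial share, which was 6.26% to 7.17% in control and 13.8% to 17.0% with lurbinectedin, moved with the same contrast, and its part in the result was not tested.

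**Figure D3:**
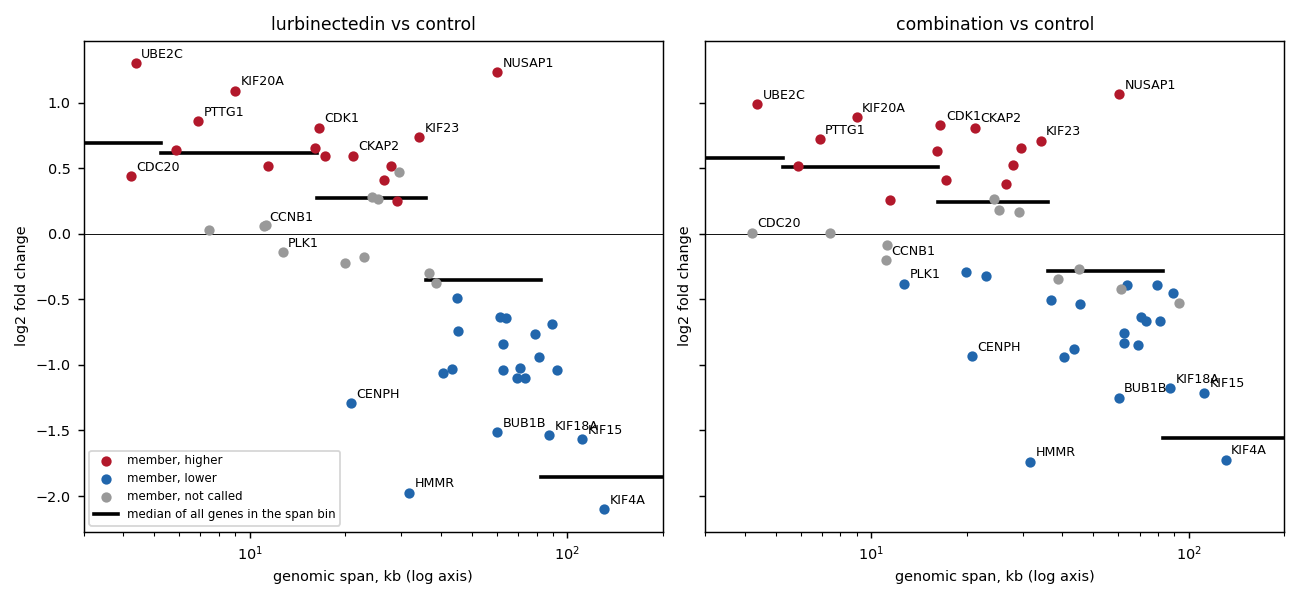
Log2 fold change of each mitotic gene against its genomic span in kb (log axis), for lurbinectedin and for the combination, each against control. Colour gives the call, and black bars give the median of all nuclear genes in 5 bins of span. Short genes such as UBE2C lie above 0, long genes such as KIF4A below, and NUSAP1, HMMR and CENPH stand off the trend.

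The combination was compared with the same control libraries, so its changes are not independent of those above. Again 36 of the 47 genes were called, 14 higher and 22 lower, where 68.4% of all tested genes were called (34.1% higher, 34.4% lower), and the median was -0.32 against 0.04 over all genes. With library size as the only scaling, 9 were higher and 27 lower (25.7% and 36.9% of all genes), and by TREAT 13 of the 47 and 43.6% of all genes were called. NUSAP1 had the largest rise, at 0.833, 1.05 and 1.28 CPM (log2 fold change 1.07, SE 0.337, edgeR adjusted p = 0.0121). It was not called when combination replicate 3 or control replicate 1 was left out. UBE2C followed at 142, 159 and 138 CPM, with each library above control (log2 fold change 0.99, SE 0.129, edgeR adjusted p = 1.13e-05). KIF20A stood at 82.9, 114 and 90.1 CPM, also above control (log2 fold change 0.89, SE 0.136, edgeR adjusted p = 5.12e-05). CDK1 stood at 273, 275 and 234 CPM and rose by 0.83 (SE 0.0872, edgeR adjusted p = 1.31e-06). CKAP2 stood at 228, 294 and 177 CPM, against 129.9, 138 and 131 CPM in control, and rose by 0.81 (SE 0.193, edgeR adjusted p = 0.00195) with a wide spread between the treated libraries.

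The 5 largest falls with the combination were those of HMMR, KIF4A, BUB1B, KIF15 and KIF18A. HMMR stood at 32.5, 37.1 and 24.6 CPM and fell by 1.74 on the log2 scale (SE 0.203, edgeR adjusted p = 3.96e-06). KIF4A stood at 26.0, 21.1 and 22.6 CPM and fell by 1.72 (SE 0.135, edgeR adjusted p = 7.18e-08). BUB1B stood at 39.5, 36.4 and 38.0 CPM and fell by 1.25 (SE 0.147, edgeR adjusted p = 4.12e-06). All 3 genes were below control in each combination library. KIF15, at 37.8, 31.2 and 33.0 CPM, fell by 1.21, and KIF18A, at 18.8, 18.3 and 15.3 CPM, fell by 1.18.

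PLK1 and AURKA, the spindle pole kinases, lay below control with the combination. PLK1 stood at 73.4, 88.4 and 77.9 CPM against 100.4, 105 and 107 CPM, with no overlap, and fell by 0.38 (SE 0.114, edgeR adjusted p = 0.00878). AURKA stood at 58.8, 64.6 and 62.1 CPM against 77.9, 78.2 and 75.4 CPM, also with no overlap, and fell by 0.32 (SE 0.0974, edgeR adjusted p = 0.00975). CCNB2 and CENPA fell by 0.29 and 0.51, and CCNB2 was not called without control replicate 1 or 2 or without combination replicate 1 or 2. CCNB1, at 177, 188 and 187 CPM, was below control in each library but not called (log2 fold change -0.20, SE 0.0998, edgeR adjusted p = 0.0888). CDC20, at 165, 195 and 198 CPM, overlapped control (log2 fold change 0.01, SE 0.179). AURKB (69.0, 73.2 and 81.4 CPM) and BIRC5 (153, 173 and 150.0 CPM) rose by 0.52 and 0.26, and neither was called with library size as the only scaling. The BIRC5 call was lost without any single control or lurbinectedin library, without combination replicate 1 or 2, and without teriflunomide replicate 2. CENPE, CENPF and NDC80 were not called against control, with log2 fold changes of -0.53, -0.42 and -0.26.

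Which genes the second drug moved beyond lurbinectedin is asked by the combination against lurbinectedin. edgeR called 0 of the 47 genes and 0% of all 16683 genes. At an unadjusted p under 0.05 there were 8 of the 47 and 2599 of all genes, and DESeq2 called 1 of the 47, ECT2, and 4.94% of the genes it tested. The median was 0.02 over the 47 genes and 0.03 over all genes. ECT2 (chr3:172750682-172821474), which sets up the contractile ring at the division plane, stood at 50.6, 56.1 and 52.7 CPM with lurbinectedin and at 77.5, 68.8 and 62.4 CPM with the combination. The groups did not overlap (log2 fold change 0.39, SE 0.108, edgeR adjusted p = 0.154). For KIF4A the values above give 0.38 (SE 0.135, edgeR adjusted p = 0.222), whereas CCNB1 was at -0.26 (SE 0.0999, edgeR adjusted p = 0.253), neither with overlap.

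Though no gene was called, the differences ran with span. The Spearman correlation across the 47 genes was 0.80, against 0.35 across all 16651 nuclear genes, and was 0.73 to 0.83 when each library in turn was left out. The 14 genes under 20 kb had a median log2 fold change of -0.17 (-0.09 over all genes of that class) and the 20 genes of 40 kb or more 0.26 (0.18 over all). CDC20, UBE2C, BIRC5 and CCNB1, all under 12 kb, had log2 fold changes of -0.43, -0.31, -0.26 and -0.26. CENPE, KIF20B, KIF4A, SPC25, KIF18A and KIF15, all over 70 kb, had values of 0.51, 0.43, 0.38, 0.37, 0.36 and 0.35. Mitochondrial share overlapped between these 2 groups, at 13.8% to 17.0% with lurbinectedin and at 14.6%, 24.9% and 13.1% with the combination.

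All 12 libraries share 1 estimate of spread, so a library outside a comparison can alter its calls. Without teriflunomide replicate 3, edgeR called 13 of the 47 genes in the combination against lurbinectedin, where 12.1% of all genes were then called. Of these 9 were higher (BUB1B, CENPE, SPC25, KIF4A, KIF15, KIF18A, KIF20B, ECT2 and ANLN) and 4 lower (CCNB1, CDC20, UBE2C and BIRC5). The log2 fold changes hardly moved: ECT2 was at 0.39 and CDC20 at -0.43 in both fits. In a fit of only the groups compared, with no library of control or of teriflunomide alone, 0 of the 47 genes were called. The share of all genes called in that fit was not counted, so this 0 has no background beside it.

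**Figure D4:**
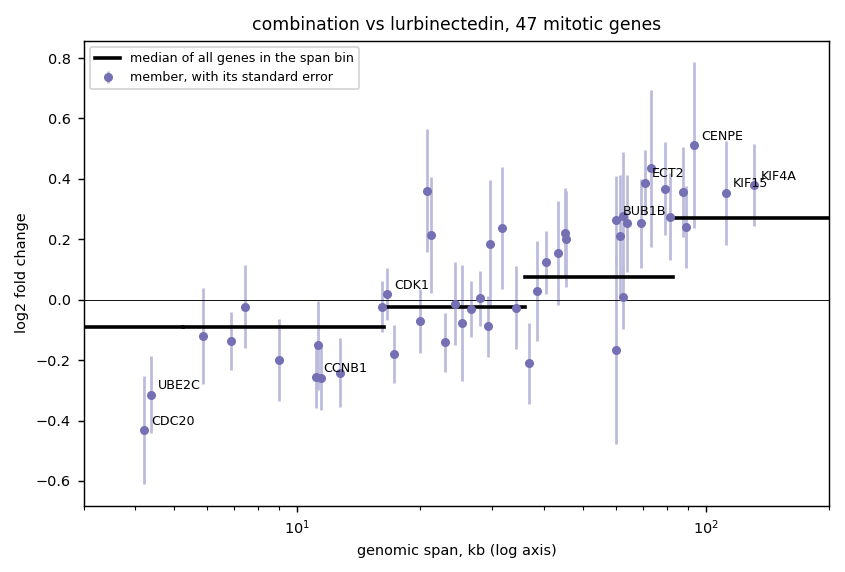
Log2 fold change of the combination against lurbinectedin for each of the 47 genes, with its standard error, against genomic span in kb (log axis). Black bars give the median of all nuclear genes in bins of span. Values run from -0.43 (CDC20, 4.22 kb) to 0.51 (CENPE, 93.1 kb), and no gene was called.

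Teriflunomide alone was compared with control to see its effect without lurbinectedin. edgeR called 0 of the 47 genes, where 6.01% of all tested genes were called. At an unadjusted p under 0.05 there were 8 of the 47 and 4143 of all 16683 genes, and DESeq2 called 3 lower (CCNB1, PLK1 and CDC20), with 12.3% of all genes called by it. The medians were 0.03 over the 47 genes and 0.03 over all genes. PLK1 stood at 87.7, 79.8 and 68.7 CPM with teriflunomide against 100.4, 105 and 107 CPM in control, groups that did not overlap (log2 fold change -0.40, SE 0.114, edgeR adjusted p = 0.0535). CDC20 stood at 149.9, 134 and 79.6 CPM against 184, 185 and 186 CPM, each library below control (log2 fold change -0.61, SE 0.180, edgeR adjusted p = 0.0613). CCNB1 stood at 189, 177 and 149 CPM against 213, 209.5 and 212 CPM, again without overlap (log2 fold change -0.30, SE 0.0998, edgeR adjusted p = 0.0888).

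BIRC5 was also below control in each teriflunomide library, at 118, 113 and 95.4 CPM (log2 fold change -0.29, SE 0.106, edgeR adjusted p = 0.114). AURKA, at 72.8, 70.8 and 64.3 CPM, and AURKB, at 49.9, 48.9 and 29.6 CPM, had log2 fold changes of -0.15 (SE 0.0971) and -0.28 (SE 0.160). CDK1 lay on the other side, at 171, 171 and 166 CPM, all above control (log2 fold change 0.21, SE 0.0867, edgeR adjusted p = 0.155). The genes that fell furthest with lurbinectedin overlapped control here: KIF4A was at 71.3, 67.7 and 88.7 CPM, KIF15 at 69.4, 73.7 and 117 CPM and KIF18A at 38.0, 39.4 and 55.3 CPM. BUB1B (70.7, 69.6 and 106 CPM) and HMMR (99.6, 91.4 and 166 CPM) overlapped control too. In all 5, replicate 3 was the highest library.

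Replicate 3 held most of the spread of the teriflunomide group. CENPE stood at 75.4, 81.0 and 190.2 CPM, KIF20B at 152, 156 and 348 CPM and CENPF at 432, 458 and 863 CPM. CKAP2, at 158, 158 and 261 CPM, was above control in all 3. AURKB, CDC20, UBE2C (75.0, 76.4 and 54.3 CPM) and ESPL1 (96.2, 93.1 and 52.7 CPM) were lowest in replicate 3. In that library the deviation from the control mean ran with span across the 47 genes (Spearman correlation 0.62), whereas the correlation was -0.14 in replicate 1 and 0.09 in replicate 2, and the group value of 0.48 became -0.02 without replicate 3. Its mitochondrial share was 22.6%, against 8.42% and 8.43% in the others, and the part of this in the result was not tested.

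Without replicate 3, edgeR called 4 of the 47 genes with teriflunomide, where 9.11% of all genes were then called. BUB1B, CDC20 and CENPF fell by 0.37, 0.38 and 0.29 on the log2 scale, and SPC24 rose by 0.45. PLK1 was then at -0.31 (SE 0.0970), just short of the threshold. Leaving out replicate 1 called 2 genes, PLK1 and CDC20, and leaving out replicate 2 called 0. The shares of all genes called in these fits were not counted.

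**Figure D5:**
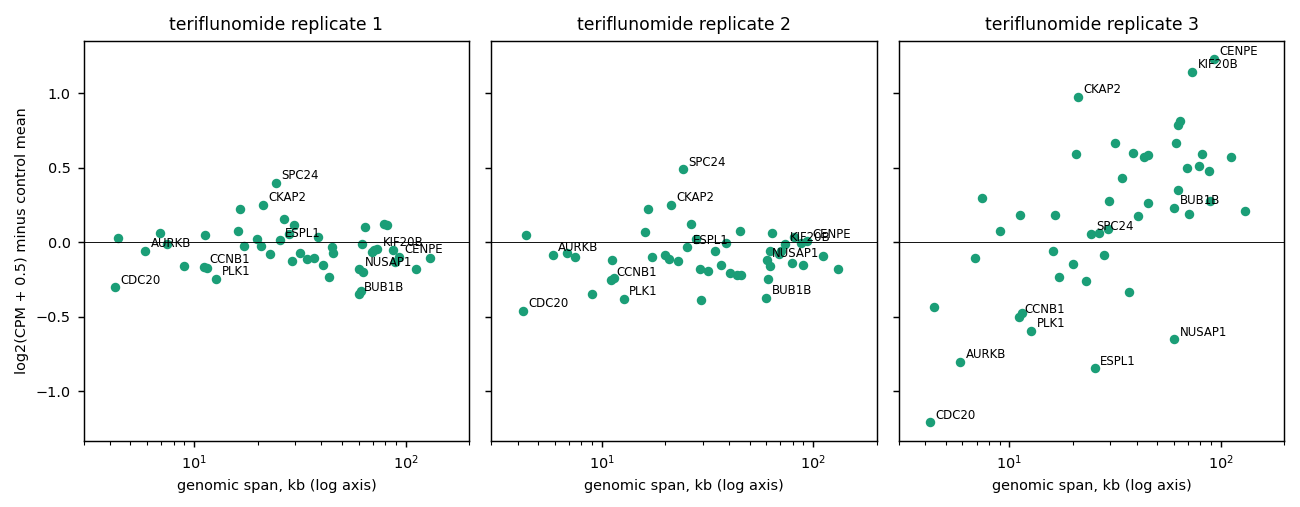
Deviation of each of the 47 genes from the control mean, as log2(CPM + 0.5), in the 3 teriflunomide libraries, against genomic span in kb (log axis). In replicate 3 the deviations run from -1.21 (CDC20) to 1.23 (CENPE) and rise with span, unlike those of replicates 1 and 2.

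The interaction is the effect of teriflunomide with lurbinectedin present minus its effect without it. edgeR called 0 of the 47 genes, with 0.258% of all genes called, 1 of the 47 and 1726 of all genes at an unadjusted p under 0.05, and 0 of the 47 by DESeq2, which called 1.82% of all genes. The smallest p-values were those of ECT2 (0.36, SE 0.152, edgeR adjusted p = 0.429), KIF4A (0.39, SE 0.187, edgeR adjusted p = 0.493) and BUB1B (0.40, SE 0.205, edgeR adjusted p = 0.536). Without teriflunomide replicate 3, edgeR called 3, where 3.61% of all genes were called: BUB1B, CENPF and DLGAP5 had interactions of 0.63, 0.51 and 0.39. The combination against teriflunomide, which shares libraries with several comparisons above, called 36 of the 47 genes, 14 higher and 22 lower, where 70.9% of all genes were called (35.2% higher, 35.8% lower). TREAT called 18 of the 47 there, and 47.1% of all genes. The Spearman correlation with span there was -0.73 across the 47 genes and -0.59 across all nuclear genes.

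A further 81 mitotic genes in 6 lists were all tested. With lurbinectedin 28 of the 81 rose and 36 fell, where 36.0% of all tested genes rose and 35.7% fell, with a median log2 fold change of -0.12 against 0.05 over all genes. Of 12 cohesin genes, whose ring holds sister chromatids together, 1 rose and 7 fell (median -1.04). STAG1, a cohesin subunit that spans 416 kb, averaged 55.4 ± 1.52 CPM in control and 0.967 ± 0.0439 CPM with lurbinectedin and fell by 5.84 on the log2 scale (SE 0.226, edgeR adjusted p = 1.15e-10). PDS5A, a cohesin regulator of 155 kb, averaged 302 ± 14.3 and 64.3 ± 6.59 CPM and fell by 2.23 (SE 0.133). Of 15 subunits of the anaphase-promoting complex, 5 rose and 8 fell (median -0.24), and ANAPC1 and ANAPC10, both over 250 kb, had log2 fold changes of -1.76 and -2.15, both called. Of 8 condensin genes, which compact chromosomes, 2 rose and 4 fell (median -0.40): NCAPG rose by 0.59 and NCAPG2 fell by 0.62.

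Of 23 other centromere and kinetochore genes, 10 rose and 9 fell (median 0.21). ZWINT, a kinetochore scaffold protein of 4.05 kb, averaged 74.6 ± 1.20 CPM in control and 175 ± 0.244 CPM with lurbinectedin and rose by 1.23 (SE 0.0887), and CENPP, which spans 295 kb, fell by 2.76 (SE 0.183). Of 11 phosphatases and kinases of mitotic entry, 8 rose and 1 fell (median 0.46). WEE1, which restrains CDK1, rose by 0.76 (SE 0.0924), and CDC25A, which activates it, rose by 0.84 (SE 0.108). Of 12 regulators of mitotic gene transcription, 2 rose and 7 fell (median -0.54). RBL1 and LIN52, which belong to the DREAM repressor complex, fell by 2.02 and 1.91. FOXM1, an activator of many genes above and named after its values were seen, averaged 222 ± 8.88 CPM in control and 201 ± 5.53 CPM with lurbinectedin and was not called. With the combination 26 of the 81 rose and 34 fell, where 34.1% and 34.4% of all genes did. With teriflunomide 3 were higher and 0 lower, where 3.88% and 2.13% of all genes were, and the 3 are named after their values were seen: KNL1, a kinetochore scaffold (log2 fold change 0.70, SE 0.174), RBL2, a DREAM subunit (0.43, SE 0.119), and ENSA, an inhibitor of the phosphatase PP2A (0.30, SE 0.0809).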

How the data were processed

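Polyadenylated RNA of 12 SBC3 libraries was measured. Extraction used an RNeasy Plus Mini kit and library preparation a KAPA mRNA HyperPrep kit, per the labels' protocols. Read counts per gene were deposited by the authors, 1 file per library with 60649 genes. Per the submitters' processing notes the tools were fastp 0.23.2, STAR 2.7.9 and featureCounts of Subread, with build hg38. The annotation release, strand setting and treatment of multi-mapping reads are not given in the sources used here, so reads of overlapping genes can be mixed or lost. Start and end of all 37318 identifiers with the same version in GENCODE 29 matched that annotation, and 60463 identifiers had a symbol in the gene name table. Total counts ranged from 23206414 to 33222162.

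Differences were tested with edgeR 4.0.16 in R 4.3.3: filterByExpr on the 4 groups (16683 genes), TMM scaling, and a robust quasi-likelihood fit with 1 mean per group over all 12 libraries (biological coefficient of variation 14.5%). P-values were adjusted by the Benjamini-Hochberg method over all genes tested, with a threshold of 0.05. Standard errors derive from the F statistic. Genomic span is the last exon end minus the first exon start in the deposited files. Deviations of single libraries used log2(CPM + 0.5). Scripts were tested on simulated data.

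The 47 genes, the other gene lists, the rules and the tests were chosen with earlier results of these data known, and the span classes after the values were seen. Values in each library are given for CDK1, CCNB1, PLK1, AURKA, AURKB, CDC20 and BIRC5, for the 5 largest called rises and falls with lurbinectedin and with the combination, for the 3 smallest p-values in the other contrasts, and for the longest and shortest gene; others are named by role. Of each further list the 2 genes with the smallest adjusted p with lurbinectedin are named with their means or changes. Promoters came from RefSeq (GRCh38.p14). Alternatives were DESeq2 1.42.0, edgeR with those size factors or scaled by library size alone, 2 other filters, the TREAT test against a 1.5-fold change, only the groups compared, a replicate block, exonic length, a floor of 10 CPM, and leaving out each library.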

Additional observations from a re-analysis of the deposited data

How the results depend on the processing

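With teriflunomide the number of genes called, 0, became 3 by DESeq2 (all lower), 1 with a filter at 1 CPM (lower) and 5 with no filter (3 higher, 2 lower). Leaving out each library in turn gave 0 to 4 called (0 to 1 higher, 0 to 3 lower): 4 without teriflunomide replicate 3, 2 without teriflunomide replicate 1, 1 without combination replicate 2 and 0 otherwise. With lurbinectedin the TREAT test against a 1.5-fold change called 20 (5 higher), and library size as the only scaling left 9 higher; leaving out each library gave 34 to 43. With the combination TREAT called 13 (3 higher, 10 lower), library size only left 9 higher, and leaving out each library gave 30 to 42. For the combination against teriflunomide TREAT called 18 (4 higher, 14 lower). For the combination against lurbinectedin DESeq2 called 1 (higher), no filter called 2 (both higher), and leaving out each library gave 0 to 13 (0 to 9 higher, 0 to 4 lower), above 0 only without teriflunomide replicate 3. For the interaction that range was 0 to 3, all higher and likewise above 0 only without that library. Shares of all genes called were not counted for the 2 other filters, the replicate block, or libraries left out other than teriflunomide replicate 3. Counts under those settings show how calls moved and have no background beside them. The cause of these shifts was not tested.

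Span correlations over the genes kept their sign in every alternative except 1: teriflunomide against control was -0.023 without teriflunomide replicate 3 (range -0.023 to 0.563 over the libraries left out). Exonic length in place of span gave -0.277 for lurbinectedin, -0.222 for the combination, 0.420 for the combination against lurbinectedin and -0.297 for the combination against teriflunomide. Over all nuclear genes, exonic length gave -0.361, -0.331, 0.280 and -0.363 in the same order. Genes with a mean of at least 10 CPM, which leaves out PRC1 and NUSAP1, gave -0.779, -0.721 and -0.798 for lurbinectedin, the combination and the combination against teriflunomide. Leaving out each library gave -0.668 to -0.651 for the combination, 0.734 to 0.830 for the combination against lurbinectedin and -0.745 to -0.687 for the combination against teriflunomide. Of the values of single named genes, 1016 kept direction and call, 24 became called, 28 were no longer called and 12 changed sign, all of them in CCNB1 with lurbinectedin and CDC20 with the combination, which were not called. CCNB1 (0.06) was -0.18 with library size only, -0.018 with no filter and -0.019 to 0.098 with libraries left out. CDC20 (0.01) was -0.0058 by DESeq2 and with its size factors, -0.16 with library size only, -0.053 with no filter and -0.041 to 0.085 with libraries left out.

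Replicate numbers did not pair the libraries: deviations of same-numbered libraries correlated at -0.40 to 0.14 between groups. With a replicate block the genes called numbered 0 with teriflunomide, 34 with lurbinectedin (13 higher, 21 lower; CDC20 and INCENP lost), 34 with the combination (14 and 20; KIF20B and ANLN lost), 0 against lurbinectedin, 36 against teriflunomide and 0 for the interaction. The share of all genes called with a replicate block was not counted. Counts were lowest for PRC1 and NUSAP1, which share 57.6% and 81.4% of their exon bases with another gene on the same strand. The part of depth in their values was not tested.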
